A study of Mus musculus with 4 samples.

Results

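Iron handling and oxidative defence were followed through 10 genes in liver cells of mice on chow, on a high-fat diet, and on a high-fat diet with a herbal formula. The genes were Hmox1, Slc40a1, Ftl1, Fth1, Tfrc, Slc11a1, Nqo1, Gclm, Slc7a11 and Gpx4, found by symbol among the 32285 genes of the files. They were measured as unique molecular identifiers (UMIs), that is, distinct captured molecules, in 5 cell types: Kupffer cells, other macrophages, monocytes, neutrophils and endothelium. These types were gated on raw UMIs of marker genes, none of them a member of the set, and held 10837 of the 31290 cells kept. Values are given as CPM, the UMIs of a gene per 1000000 UMIs of all gated cells of a type in a library, with libraries listed in the order NCD, HFD replicate 1, HFD replicate 2, JQF.

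The animals were male C57BL/6J mice that entered the study young. The NCD group (1 library) ate normal chow. The HFD group (2 libraries) ate a fat-rich diet for months and, like NCD, was gavaged with water. The JQF group (1 library) stayed on the same diet and received Jiangtang Qingre Formula, a mixture of herbal granules with a decoction of red yeast rice, by mouth every day over the last weeks. No allele, transgene or cell sort was part of the design, each library came from a perfused, enzymatically digested liver, and nothing in the sources used here says that animals were pooled. The spread between libraries was therefore known from the HFD pair alone, and NCD and JQF were assumed to vary like it. A label naming hematopoietic stem cells does not describe this mixture of liver cells.

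Macrophages of the liver take up senescent red cells, break down heme and return its iron to the blood. Heme oxygenase 1 (Hmox1) opens the heme ring and frees the iron, ferritin light and heavy chains (Ftl1, Fth1) store it, ferroportin (Slc40a1) exports it, the transferrin receptor (Tfrc) brings it in, and Slc11a1 moves it out of phagosomes. Free iron feeds the oxidation of lipids. The cystine importer Slc7a11 and the glutamate-cysteine ligase modifier subunit (Gclm) supply glutathione, Gpx4 uses it to reduce lipid peroxides, and Nqo1 reduces quinones. Translation and stability of several of these transcripts are set by iron regulatory proteins, which bind a hairpin called the iron-responsive element, while NRF2 drives Hmox1, Nqo1, Gclm, Slc7a11 and the ferritins through antioxidant response elements.

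The iron-responsive elements are shown because they join the members into an import arm and a storage and export arm. They were searched in the untranslated regions of the GENCODE M21 annotation on GRCm38 as an unpaired C, 5 bases of stem, the loop CAGTGN and bases that pair with the stem. Capitals mark the first 5 bases of the loop.
Slc40a1 5′ UTR, chr1:45925466-45925492, minus strand: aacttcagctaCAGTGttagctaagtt
Ftl1 5′ UTR, chr7:45459780-45459806, minus strand: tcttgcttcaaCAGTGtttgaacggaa
Fth1 5′ UTR, chr19:9982733-9982759, plus strand: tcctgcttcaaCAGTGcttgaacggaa
Tfrc 3′ UTR, chr16:32631220-32631246, plus strand: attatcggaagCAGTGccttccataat
Tfrc 3′ UTR, chr16:32631599-32631625, plus strand: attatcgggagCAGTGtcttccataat
Tfrc 3′ UTR, chr16:32631664-32631690, plus strand: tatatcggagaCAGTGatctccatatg
Tfrc 3′ UTR, chr16:32631711-32631737, plus strand: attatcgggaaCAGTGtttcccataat
Over all annotated genes the pattern lay in the 5′ UTR of 31 of 20900 (0.148%) and in the 3′ UTR of 129 of 21028 (0.613%). Ftl1 and Fth1 carried elements of the same upper stem, and Tfrc carried 4 elements in a row. These elements act on translation or on the half-life of the RNA, so for the ferritins and Slc40a1 a transcript level is not a protein level. The core of the antioxidant response element (TGACNNNGC, either strand) was searched in RefSeq promoters of GRCm38.p6, from 250 bases before to 50 after the start. It was present in 4071 of 32851 promoters (12.4%). Hmox1 and Slc40a1 had no promoter entry and were not searched. Elements outside this window were not searched, so a member without a match may still have one elsewhere. Of the other 8 members 1 held a match, which is near the share of all promoters. This was Gclm, 134 bases before the start on the minus strand of the promoter chr3:122245307-122245606, with the core in capitals.
Gclm: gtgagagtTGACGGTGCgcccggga

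Between 5975 and 10259 cells per library passed the filters, with medians of 7608 to 13081 UMIs, NCD being the deepest. The 6 Kupffer markers summed to 6939 to 13449 CPM in Kupffer cells, and the 7 neutrophil markers to 34193 to 68953 CPM in neutrophils. The gates used markers from these lists, so the sums describe the gates and cannot check them. In HFD replicate 1, Vsig4 was found in 34.1%, Marco in 3.25% and Timd4 in 4.07% of Kupffer cells. In NCD the shares were 99.0%, 61.5% and 96.2%. Gated cells numbered 104, 123, 1103 and 208 for Kupffer cells, 44, 469, 804 and 363 for monocytes, 99, 361, 419 and 375 for neutrophils and 3336, 97, 1052 and 560 for endothelium. Other macrophages, which carry macrophage markers and C1q but almost no Clec4f, numbered 13, 377, 786 and 144, so NCD was left out of their tests and of the ranges given for them. Libraries shared 14 to 30 cell barcodes per pair, at most 0.334% of the smaller library.

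Hmox1 (ENSMUSG00000005413, chr8:75093621-75100589) was a Kupffer cell transcript first of all. Its level there was 1847, 915, 976 and 1928 CPM, above every other type in every library. Other macrophages held 447 to 547 CPM, monocytes 90.0 to 359, neutrophils 42.4 to 355 and endothelium 54.2 to 94.7. Neighbours in this order did not overlap between Kupffer cells and other macrophages or between other macrophages and monocytes, whereas monocytes, neutrophils and endothelium overlapped. When every cell was thinned to 2000 UMIs, Hmox1 was found in 61.8% to 87.1% of Kupffer cells, and in 90.2% to 97.1% before thinning. T cells, which should lack it, showed it in 0.707% to 2.19% of thinned cells, at median depths of 6735 to 10822 UMIs against 11389 to 16922 in Kupffer cells.

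Slc40a1 (ENSMUSG00000025993, chr1:45908068-45926523), the only known iron exporter, separated Kupffer cells from monocytes. Kupffer cells held 1935, 1428, 1667 and 1937 CPM. Other macrophages held 214 to 535, neutrophils 164 to 217 and endothelium 83.4 to 274 CPM. Monocytes, which circulate, held 1.4 to 6.9 CPM, near the levels of T cells (1.1 to 6.7). After thinning, 81.3% to 89.3% of Kupffer cells, 24.2% to 28.4% of neutrophils and at most 0.873% of monocytes had an Slc40a1 UMI, against 0.218% to 1.15% of T cells. The monocyte share is thus at the level of background.

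The ferritin chains were abundant in all myeloid cells and low in endothelium. Fth1 (ENSMUSG00000024661, chr19:9980598-9985098) reached 7014, 15647, 15383 and 17702 CPM in neutrophils, the type with the highest mean. The NCD neutrophils stood apart, at less than the lowest HFD or JQF value. Other macrophages held 7710 to 12173, monocytes 2858 to 11107, Kupffer cells 4291 to 10967 and endothelium 460 to 1154 CPM, and only the step down to endothelium was free of overlap. Ftl1 (ENSMUSG00000050708, chr7:45457944-45459884) was highest in other macrophages at 7156 to 8250 CPM and lowest in endothelium at 1007 to 1470, whereas the 13 other macrophages of NCD held 3808 CPM, within the ranges of neutrophils and Kupffer cells. Neutrophils held 2076 to 6464, Kupffer cells 3078 to 5608 and monocytes 1863 to 5815 CPM of Ftl1, all overlapping. Both chains together took 0.909%, 2.18%, 2.16% and 2.42% of all neutrophil UMIs. The Ftl1 pseudogene Ftl1-ps1 is a separate feature at 100 to 257 CPM in Kupffer cells, and reads shared between such copies make Ftl1 uncertain to that extent.

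Iron uptake genes followed other orders. Tfrc (ENSMUSG00000022797, chr16:32608920-32632794) was scarce everywhere, with 51.5, 18.0, 18.4 and 38.1 CPM in Kupffer cells and 3.2 to 28.2 CPM in the remaining types, where the ranges of neighbours overlapped. B cells held more, at 31.7 to 106 CPM. Slc11a1 (ENSMUSG00000026177, chr1:74375195-74386062) was alike in Kupffer cells (196 to 278 CPM), other macrophages (204 to 254) and neutrophils (205 to 236), lower in monocytes (128 to 167) and at 0.2 to 6.3 CPM in endothelium. The endothelial level resembled that of T cells (0.5 to 2.5 CPM). In HFD replicate 1, 3 endothelial cells held 80.0% of its UMIs.

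Slc7a11 (ENSMUSG00000027737, chr3:49892526-50443614) marked neutrophils. It measured 4811, 3358, 2469 and 3620 CPM there, 18.9 times the mean of monocytes, the next type. Monocytes held 116, 100, 139 and 398 CPM and other macrophages 46.7, 47.2 and 190 CPM in the HFD and JQF libraries. Kupffer cells (1.5 to 8.1 CPM) and endothelium (0.4 to 1.6) were near the levels of T cells (0.4 to 6.9). After thinning, 82.3% to 93.9% of neutrophils and at most 1.01% of Kupffer cells had an Slc7a11 UMI, although neutrophils were the shallowest type, with medians of 3451 to 5759 UMIs.

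The other defence genes varied less. Gclm (ENSMUSG00000028124, chr3:122245557-122270732) was 66.0, 62.4, 62.5 and 108 CPM in Kupffer cells, 16.97 to 139 in neutrophils, 51.6 to 79.9 in other macrophages, 40.9 to 57.7 in endothelium and 17.3 to 45.8 in monocytes, each range overlapping its neighbour. Gpx4 (ENSMUSG00000075706, chr10:80047166-80056439) was highest in endothelium, at 221 to 313 CPM, without overlap with other macrophages (178 to 201), the next type. Its means in the 4 myeloid types lay between 175 and 190 CPM. Nqo1 (ENSMUSG00000003849, chr8:107388225-107403206) was the rarest member, at 8.4 to 14.2 CPM in endothelium and no more than 7.2 CPM in any sum of macrophages or monocytes. Neutrophils showed 1.7, 6.5, 44.5 and 15.6 CPM of Nqo1, but 3 cells held 82.3% of its UMIs in HFD replicate 2, the library with the highest value.

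**Figure D1:**
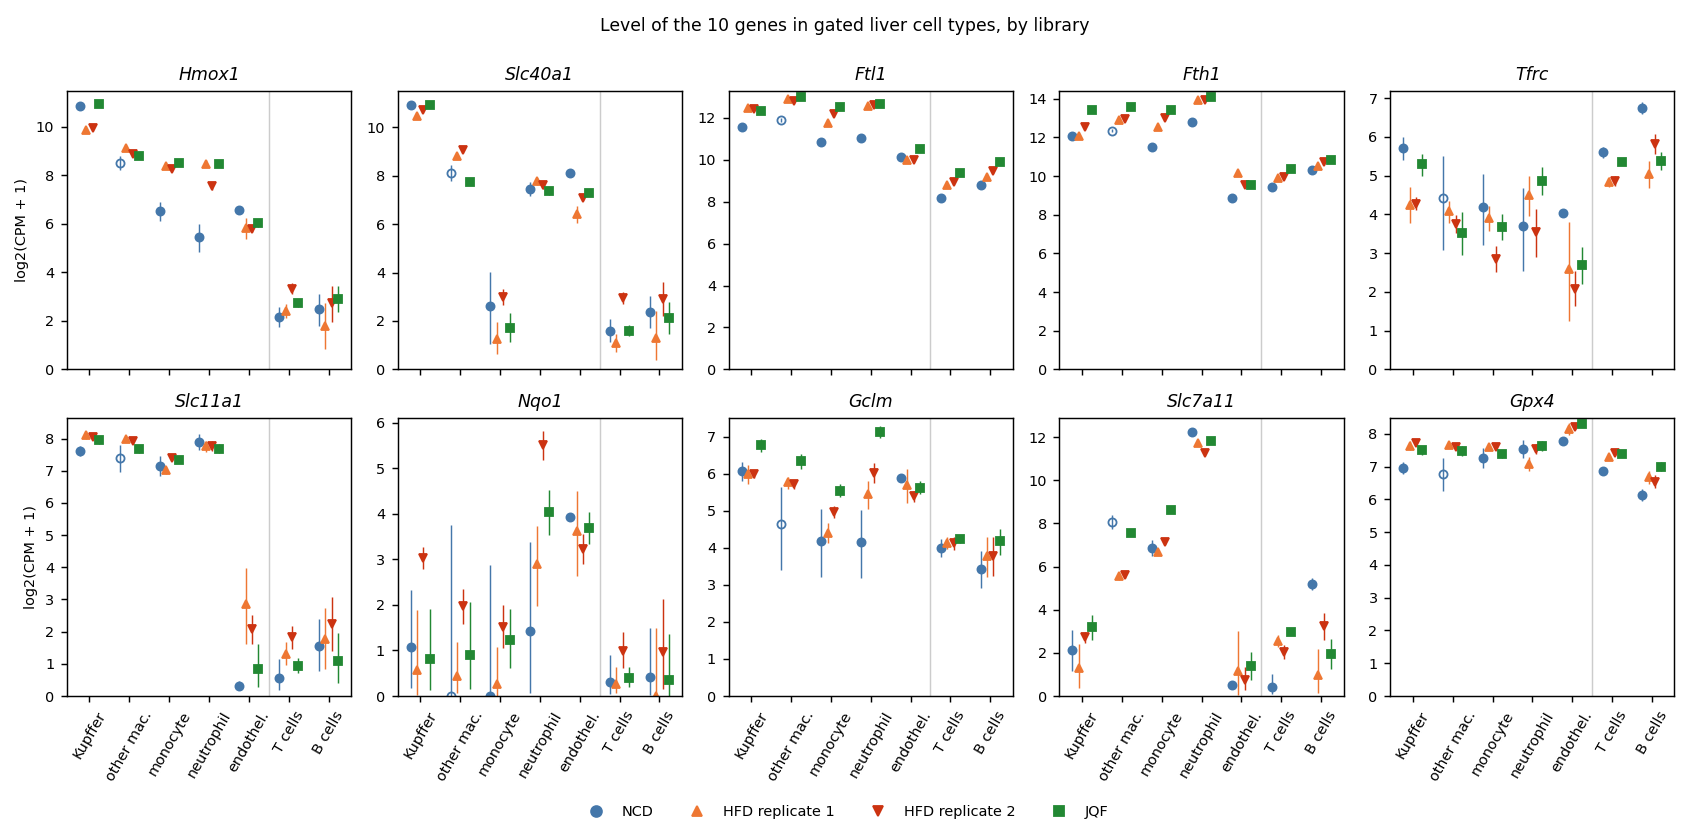
Level of each gene as log2(CPM + 1) in 5 gated types and in T and B cells, by library, with exact Poisson 95% intervals for counting error; hollow points are sums from fewer than 20 cells. Hmox1 and Slc40a1 peak in Kupffer cells, Slc7a11 in neutrophils, and Slc40a1 drops to 1.4 to 6.9 CPM in monocytes.

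**Figure D2:**
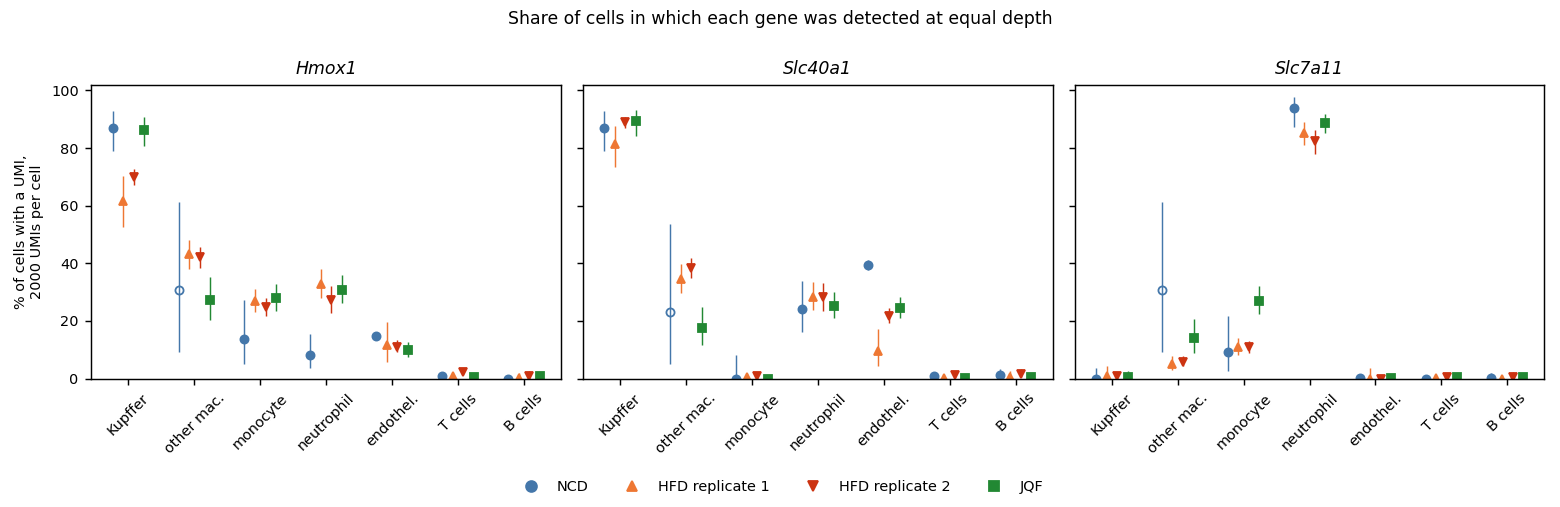
Percent of cells with at least 1 UMI of Hmox1, Slc40a1 or Slc7a11 after each cell was thinned to 2000 UMIs, by type and library, with exact binomial 95% intervals. Kupffer cells reach at least 61.8% for Hmox1 and 81.3% for Slc40a1, and neutrophils at least 82.3% for Slc7a11, whereas T cells reach at most 2.19%, 1.15% and 0.437%.

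Each type was tested against the mean of the other 4 with library as a block (edgeR quasi-likelihood test, Benjamini-Hochberg over all genes tested, threshold 0.05). That mean is on the log2 scale, where a type with a very low level lowers it, so higher does not mean highest. In all, 33 of 50 values passed. In Kupffer cells 5 of 10 members passed, where 45.5% of all genes did. Slc40a1 was higher by 4.27 on the log2 scale (SE 0.26, adjusted p 2.53e-09), Hmox1 by 2.62 (SE 0.36, 1.94e-05), Slc11a1 by 2.03 (SE 0.28, 2.11e-05) and Tfrc by 1.08 (SE 0.25, 0.00249). Slc7a11 was lower, at -4.07 (SE 0.40, adjusted p 6.16e-07), and this call alone was lost when free RNA was subtracted. In endothelium 7 of 10 passed against 67.9% of all genes, with Slc7a11 at -7.89 (SE 0.51), Slc11a1 at -7.71 (SE 0.52), Fth1 at -3.79 (SE 0.27), Hmox1 at -3.04 (SE 0.49), Ftl1 at -2.45 (SE 0.27) and Tfrc at -1.78 (SE 0.32). Nqo1 alone was higher in endothelium, by 1.99 (SE 0.50, adjusted p 0.00224).

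In neutrophils 9 of 10 members passed, all higher than the mean of the other types, where 65.8% of all genes passed. Neutrophils had the highest mean level for Slc7a11, Fth1 and Nqo1. Mean Slc40a1 was 188 CPM, against 1741 in Kupffer cells, 398 in other macrophages and 3.95 in monocytes. Mean Slc11a1 was 219 CPM, against 246 in Kupffer cells, 234 in other macrophages and 2.65 in endothelium. Gpx4 had its lowest mean in neutrophils, at 175 CPM. Slc7a11 was higher by 8.63 on the log2 scale (SE 0.29, adjusted p 4.4e-13), Nqo1 by 3.21 (SE 0.46), Slc11a1 by 2.51 (SE 0.28), Fth1 by 2.34 (SE 0.19) and Ftl1 by 1.08 (SE 0.21). For Nqo1, 3 neutrophils held 82.3% of its UMIs in HFD replicate 2. Epithelial markers in this gate summed to 3.4, 7.9, 411 and 303 CPM over the libraries, and their part was not tested. The scale matters for this type: scaling by library totals alone moved the median of all genes from -0.24 to -0.78. Gpx4, at 0.35, then turned to -0.17, and the calls for Slc40a1 (0.98), Tfrc (1.00) and Gclm (0.85) were lost. Tfrc and Gclm were also lost without JQF (adjusted p 0.115 and 0.125), Tfrc without HFD replicate 1 (0.0574), Gclm without HFD replicate 2 (0.0841), and Gpx4 without NCD, HFD replicate 2 or JQF (0.0595, 0.0946 and 0.130).

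In monocytes 6 of 10 passed, against 44.4% of all genes. Slc40a1 was lower by a log2 value of -6.62 (SE 0.47, adjusted p 4.89e-08), while Slc7a11 (2.45, SE 0.27) and Slc11a1 (1.35, SE 0.29) were higher than the mean of the other types. For Slc11a1, monocytes at 128 to 167 CPM lay above endothelium alone (0.2 to 6.3 CPM) and below Kupffer cells, other macrophages and neutrophils. Nqo1 (-2.33) was lost without HFD replicate 2 (adjusted p 0.0664), Gclm (-1.04) without HFD replicate 1 (0.0548), and Fth1 (0.52) without HFD replicate 2 or JQF (0.284 and 0.217). In other macrophages 6 of 10 passed, against 32.8% of all genes. Slc11a1 (1.83, SE 0.31, adjusted p 0.000463) and Slc40a1 (1.74, SE 0.30, 0.000519) were higher and kept their calls when any library was left out. Ftl1 (0.99), Fth1 (0.70) and Nqo1 (-2.04) lost theirs without either HFD replicate or JQF, with adjusted p of up to 0.0667, 0.164 and 0.124. Slc7a11 (0.88) lost its call without any of the 4 libraries, at adjusted p 0.0703 to 0.242.

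The wider pathways were counted in each type from fixed lists of iron and heme, NRF2 and glutathione, and peroxide and superoxide genes, in which the named genes had a mean of at least 20 CPM. Most genes of any kind passed in some types, so the counts stand beside the 45.5% of all genes called in Kupffer cells, 65.8% in neutrophils, 67.9% in endothelium, 44.4% in monocytes and 32.8% in other macrophages. Kupffer cells were higher in 17 and lower in 8 of 37 iron and heme genes, with the hemoglobin scavenger receptor Cd163 (7.88, SE 0.29) and Spic (4.76, SE 0.25), a transcription factor of iron-recycling macrophages, at the top. They were higher in 15 and lower in 1 of 24 peroxide and superoxide genes, among them Cybb (1.86), Gpx1 (1.71) and Cat (1.61), and higher in 9 and lower in 3 of 24 NRF2 and glutathione genes. Neutrophils were higher in 18 and lower in 3 of the 24 NRF2 and glutathione genes, with Osgin1 at 4.80 (SE 0.26), Gsr, which regenerates glutathione, at 3.46 (SE 0.16) and a list median of 1.01 beside -0.24 over all genes. Their other lists counted 12 higher and 16 lower of 37, and 8 higher and 12 lower of 24. Endothelium was higher in 2 and lower in 17 of the 24 NRF2 and glutathione genes, higher in 9 and lower in 16 of 37, and higher in 4 and lower in 16 of 24, with Bmp6 (8.05, SE 0.36) and Bmp2 (7.56, SE 0.36) the highest. Monocytes counted 10 higher and 12 lower, 8 and 4, and 14 and 5, and other macrophages 11 higher and 8 lower, 5 and 2, and 13 and 2, in the same order of lists.

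Subsets differed in fewer members. Among other macrophages, lipid-associated cells had a UMI of at least 2 of Trem2, Gpnmb and Spp1, and remaining macrophages of none. Cells with 1 of the 3 entered neither group, so that 234 and 44 of 377, 449 and 111 of 786, and 53 and 31 of 144 cells were compared in the HFD and JQF libraries. Lipid-associated Ftl1 was 8313, 7957 and 10744 CPM in the HFD and JQF libraries, against 5613, 4967 and 4783 CPM in the remaining macrophages, with no overlap. This was the 1 of 9 members that passed, higher by 0.83 on the log2 scale (SE 0.16, adjusted p 0.0152), where 5.76% of all genes passed. Fth1 was 8153, 8845 and 16469 CPM against 7693, 5677 and 6403, with an adjusted p of 0.0996. Without HFD replicate 1, Fth1, Hmox1, Gclm and Slc7a11 passed as well (adjusted p 0.00436, 0.0111, 0.0297 and 0.0170).

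Classical and nonclassical monocytes differed in 2 of 8 members, where 13.1% of all genes passed. Slc11a1 was 112, 134 and 132 CPM in classical cells of the HFD and JQF libraries and 184, 261 and 209 CPM in nonclassical cells. It was lower in classical cells, by a log2 value of -0.79 (SE 0.15, adjusted p 0.00412). Gpx4 was higher in them, by 0.92 (SE 0.19, 0.00771), with 220, 214 and 184 CPM against 71.0, 116 and 135 CPM. Without HFD replicate 2, Hmox1 and Gclm passed too, both lower in classical cells (adjusted p 0.000738 and 0.00235), and without HFD replicate 1 Slc7a11 and Fth1 did (0.00379 and 0.0286). The splits of Kupffer cells by Timd4 and of endothelium into sinusoidal and large-vessel cells had 20 or more cells on each side in only 2 libraries and were not tested.

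Across the 19 sums of type and library with at least 20 cells, the genes most alike to each member were sought by Pearson correlation of log values over 6508 genes. Types share a library and its depth, so r is a description. Slc11a1 went with AB124611 (r 0.9952) and Lrrc25 (0.9935), Slc7a11 with Ccrl2 (0.9752) and Clec4d (0.9743), and Fth1 with Il1rn (0.9715) and Bcl2a1b (0.9649). Ftl1 was most like the proton pump subunit Atp6v0c (0.958), Slc40a1 was most like St3gal5 (0.951) and Hmox1 most like Pla2g15 (0.9415). Gclm went with Srxn1 (0.817), another antioxidant gene, Tfrc with Atp6v1a (0.848), Gpx4 with Gabarapl2 (0.911) and Nqo1 with Tecpr1 (0.826). Among the members, Fth1 and Slc11a1 (0.908) and the ferritin pair (0.893) were the most alike, and Tfrc and Gpx4 (-0.739) the least.

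The high-fat diet was compared with chow to ask which steps of iron handling moved with the diet in each type. Of 39 values tested in 4 types, 12 passed, 7 higher and 5 lower in HFD, where 12.8% of all genes passed in Kupffer cells, 13.8% in monocytes, 2.82% in neutrophils and 13.8% in endothelium. The Hmox1 transcript was lower in Kupffer cells and endothelium and higher in monocytes and neutrophils. Ferritin calls were all towards higher levels: both chains in neutrophils, Ftl1 in Kupffer cells, and Fth1 in monocytes and endothelium, the last lost in sinusoidal cells alone. Whether the chains differed from each other was not tested. Endothelial Ftl1, which was not called, was 1114 CPM in NCD and 1014 and 1007 CPM in HFD. Outside the tested types ferritin was lowest in NCD. B cells held 1290, 1461, 1678 and 1822.5 CPM of Fth1 and 446, 574, 698 and 937 CPM of Ftl1. Droplets without cells held 1093, 3802, 5922 and 3905 CPM of Fth1 and 1021, 2698, 4234 and 2253 CPM of Ftl1. The part of a shift common to whole libraries, or of free RNA, was not tested. Slc40a1 fell in endothelium, and Tfrc in Kupffer cells and endothelium, the last with 4 and 25 UMIs in the HFD libraries.

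In Kupffer cells 3 of 10 members passed in HFD against NCD, where 12.8% of all genes did. Hmox1 was 915 and 976 CPM in HFD and 1847 CPM in NCD. It fell by 0.94 on the log2 scale (SE 0.24, adjusted p 0.0422). Tfrc was 18.0 and 18.4 CPM in HFD and 51.5 in NCD, a change of -1.46 (SE 0.22, adjusted p 0.00932). Ftl1 rose from 3078 CPM to 5608 and 5495, a mean of 5552 ± 80 (SD, n = 2), by 0.87 (SE 0.23, 0.0497). In all 3 genes the HFD pair lay close together and apart from NCD. Slc40a1 (-0.30, adjusted p 0.469), Fth1 (0.28, 0.527), Gclm (-0.05, 0.879), Slc11a1 (0.50, 0.233), Slc7a11 (0.32, 0.854), Nqo1 (2.04, 0.437) and Gpx4 (0.75, 0.0921) did not pass. DESeq2 kept Hmox1 alone, and the Hmox1 and Ftl1 calls were lost with a stricter cell filter or with median-ratio scaling (adjusted p up to 0.167 and 0.236).

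The makeup of the Kupffer gate moved with the groups. Timd4, a marker of long-resident Kupffer cells, was found in 96.2%, 4.07%, 39.7% and 82.7% of gated Kupffer cells. Lipid-associated markers in the same gate summed to 68.2 CPM in NCD, 1137 and 606 CPM in HFD and 459 CPM in the JQF library. Monocyte markers there summed to 59.8, 119, 290 and 28.1 CPM and endothelial markers to 365, 161, 256 and 353 CPM. The part of these in the results was not tested. Among Timd4-positive cells Hmox1 was 1803 CPM in NCD and 1270 CPM in HFD replicate 2, and Tfrc 51.8 and 18.1 CPM. HFD replicate 1 had 5 such cells, so this split had no test. Tfrc also differed outside the gate: T cells held 47.5, 27.7, 28.1 and 39.8 CPM, and B cells 106, 31.7, 55.5 and 40.7 CPM, with NCD highest in both.

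In monocytes 2 of 9 members passed, against 13.8% of all genes. Hmox1 was 90.0 CPM in NCD and 329 and 306 CPM in HFD, with no overlap. It rose by 1.75 on the log2 scale (SE 0.24, adjusted p 0.00603). Fth1 was 2858 CPM in NCD and 5953 and 8078 CPM in HFD, a change of 1.23 (SE 0.33, 0.0461), lost with 1 more marker in the gate (up to 0.124 over the alternatives). Ftl1 followed with 1863 against 3450 and 4615 CPM and an adjusted p of 0.0599, and it passed without JQF (0.0388) and by DESeq2. The median of all genes in this comparison was itself 0.20. Nonclassical cells made up 54.5% of monocytes in NCD and 5.54% and 10.9% in HFD, the hepatocyte markers summed to 345 CPM in NCD and 80.6 and 737 in HFD, and lipid-associated markers to 185 CPM in NCD and 744 and 1038 in HFD. The part of these was not tested.

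Nonclassical monocytes were therefore fitted alone, a choice made after seeing the data, and 3 of 7 members passed against 14.2% of all genes. Fth1 was 1623 CPM in NCD and 8651 and 5602 CPM in HFD, a change of 2.09 (SE 0.34, adjusted p 0.00021). Hmox1 was 65.1 CPM in NCD and 906 and 245 CPM in HFD, a change of 3.03 (SE 0.60, 0.00139), and HFD replicate 1, with 26 cells, held the high value. Without that replicate it was 1.91 and without the other 3.76, neither with a test. Ftl1 changed by 1.13 (SE 0.31, 0.0151). DESeq2 called Fth1 and Ftl1 but not Hmox1.

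In neutrophils 3 of 10 members passed, against 2.82% of all genes. Hmox1 was 42.4 CPM in NCD and 355 and 186 CPM in HFD, a rise of 2.69 on the log2 scale (SE 0.50, adjusted p 0.0254). Ftl1 was 2076 CPM in NCD and 6134 and 6257 in HFD, a rise of 1.59 (SE 0.28, 0.0213). Fth1 was 7014 CPM in NCD and 15647 and 15383 in HFD, a rise of 1.16 (SE 0.24, 0.0390). None of these groups overlapped, and JQF (353, 6464 and 17702 CPM) lay with HFD each time. With 1 more marker in the gate all 3 calls were lost (adjusted p 0.0611, 0.0579 and 0.0764), while DESeq2 called the same 3 genes. Neutrophil markers summed to 34193, 59131, 68953 and 42764 CPM over the libraries. Hepatocyte markers summed to 798, 152, 230 and 806 CPM in this gate, endothelial markers to 119, 1.4, 19.1 and 7.8 CPM and monocyte markers to 84.9, 486, 1469 and 537 CPM. Epithelial markers summed to 3.4, 7.9, 411 and 303 CPM, and lipid-associated macrophage markers to 1281, 2230.5, 2131 and 2179 CPM. The part of these in the result was not tested. Gclm (16.97 against 42.4 and 64.1 CPM, adjusted p 0.110) and Slc7a11 (4811 against 3358 and 2469 CPM, 0.227) did not pass.

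In endothelium 4 of 10 members passed, against 13.8% of all genes. Slc40a1 was 274 CPM in NCD and 83.4 and 135 in HFD, and fell by 1.45 on the log2 scale (SE 0.26, adjusted p 0.000144). Hmox1 was 94.7 CPM against 55.6 and 54.2, a change of -0.96 (SE 0.24, 0.00504). Tfrc was 15.4 CPM against 5.1 and 3.2, a change of -2.25 (SE 0.51, 0.00222). The HFD values of Tfrc rest on 4 and 25 UMIs, and after thinning Tfrc was 13.6 CPM in NCD against 10.5 and 3.0 CPM. The HFD values were below NCD in all 3 genes. Fth1 went the other way, from 460 CPM to 1154 and 755 (0.86, SE 0.29, 0.0428), but 3 cells held 43.6% of its UMIs in HFD replicate 1. DESeq2 kept the call for Slc40a1 alone, and 4 alternatives in all ended that for Fth1.

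The endothelial libraries differed in makeup: sinusoidal cells made up 93.8% of gated cells in NCD and 58.8% and 82.3% in HFD. Large-vessel markers summed to 116 CPM in NCD and 1278 and 483 CPM in HFD, monocyte markers to 17.4 CPM in NCD and 421 and 111 in HFD, erythroid markers to 618 CPM in NCD and 17.7 and 202 in HFD, and lipid-associated macrophage markers to 191 CPM in NCD and 916 and 875 in HFD. The part of these in the result was not tested. Sinusoidal cells were fitted alone after seeing the data, and 5 of 9 members passed, all lower in HFD, against 12.7% of all genes. Slc40a1 was 281 CPM in NCD and 117 and 146 in HFD, a change of -1.20 (SE 0.25, adjusted p 4.9e-05). Hmox1 changed by -0.71 (SE 0.25, 0.0404), Tfrc by -2.40 (SE 0.64, 0.00289), Nqo1 by -1.85 (SE 0.58, 0.0162) and Gclm by -0.78 (SE 0.27, 0.0349). Fth1, at 450 CPM against 598 and 682, did not pass (0.35, adjusted p 0.552). Without HFD replicate 2 the Tfrc change was -1.16, with no test. DESeq2 called Slc40a1 alone.

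**Figure D3:**
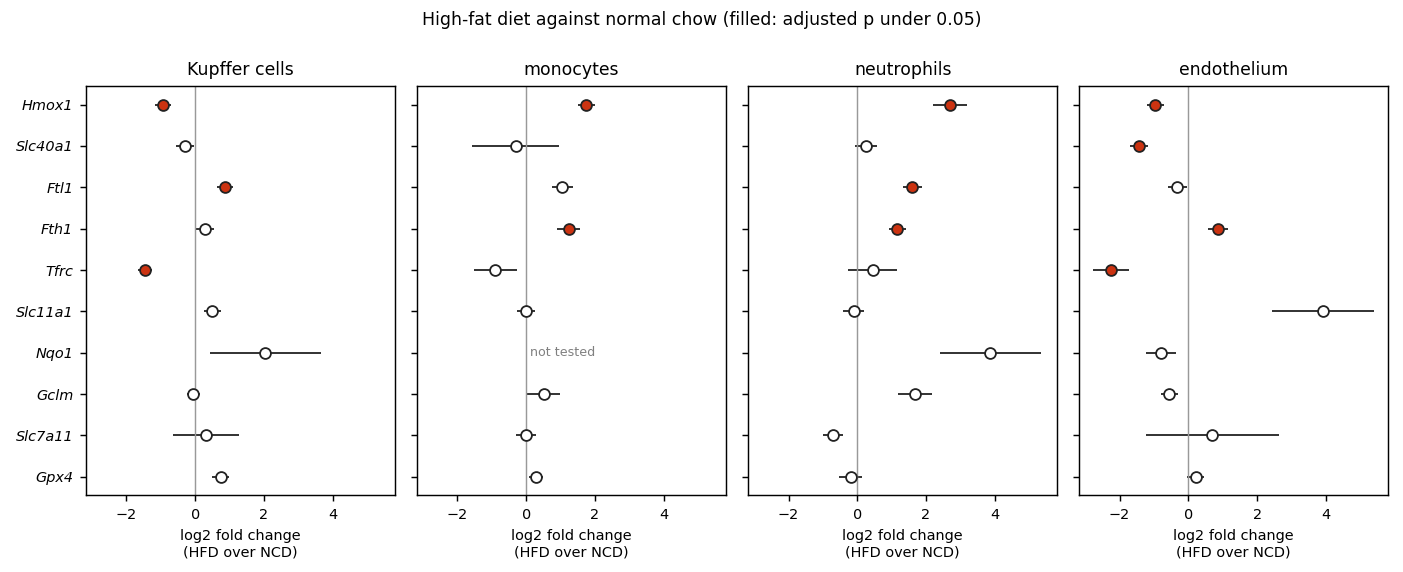
Log2 fold change of HFD over NCD for each gene (rows) in 4 types (panels), with its SE; filled points have an adjusted p under 0.05. Hmox1 lies at -0.94 in Kupffer cells and -0.96 in endothelium and at 1.75 and 2.69 in monocytes and neutrophils.

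The same lists were counted for the diet, beside the 12.8% of all genes called in Kupffer cells, 13.8% in endothelium and in monocytes and 2.82% in neutrophils. Genes are named from those with the largest called changes and do not stand for their list. Of 33 iron and heme genes tested in Kupffer cells 2 rose and 2 fell in HFD, with a list median of -0.09 beside 0.04 over all genes. Slc11a2, an endosomal iron transporter, fell from 63.2 CPM to 15.6 and 18.4 CPM (-1.82, SE 0.22, adjusted p 0.00532). Bach1, a heme-sensing repressor of Hmox1, fell in Kupffer cells (-1.12, SE 0.18, 0.0130), monocytes (-0.89, SE 0.20, 0.0248) and endothelium (-1.32, SE 0.24, 0.000143). Alas1 (1.09, adjusted p 0.0269) and Blvra (0.86, 0.0450), which start heme synthesis and reduce biliverdin, rose in Kupffer cells. Of 23 peroxide and superoxide genes 4 rose and 1 fell there, among them Prdx2 (1.41, adjusted p 0.0161), Gpx3 (1.39, 0.00963) and the oxidase subunit Cyba (1.28, 0.0232) upwards and Sod2 (-1.07, 0.0309) downwards. Of 23 NRF2 and glutathione genes only Abcc1 passed, downwards (-0.72, 0.0419).

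In endothelium, where 13.8% of all genes passed, 2 of 34 iron and heme genes rose and 6 fell. Bmp6 and Bmp2, which endothelial cells secrete to raise hepcidin in hepatocytes, were 643 and 1938 CPM in NCD against 202 and 311, and 421 and 929 CPM, in HFD. They fell by 1.48 (SE 0.27, adjusted p 0.000161) and 1.68 (SE 0.31, 0.00026), and in sinusoidal cells alone by 1.23 and 1.30. The NRF2 and glutathione list had 3 of 23 genes lower and none higher: Gclc (-1.56, SE 0.24, 1.86e-05), Sqstm1 (-1.55, SE 0.25) and Txnrd1 (-1.51, SE 0.25). Its median was -0.05 beside 0.00 over all genes. Of 25 peroxide and superoxide genes 6 rose, among them Cybb (3.62, SE 0.34) and Gpx1 (1.40, SE 0.26), and Mt1 (-1.29) and Mt2 (-0.93) fell. Cybb encodes the phagocyte oxidase, and macrophage markers summed to 61.3 CPM in NCD and 96.1 and 132 CPM in HFD. Their part was not tested.

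In monocytes, where 13.8% of all genes passed, 3 of 33 iron and heme genes rose and Bach1 fell. Hp, which binds free hemoglobin, rose from 277 CPM to 782 and 823 CPM (1.47, SE 0.24, adjusted p 0.0101). Of 23 NRF2 and glutathione genes 5 rose and 2 fell. Keap1, the repressor of NRF2, was 3.46 CPM in NCD, from 2 UMIs, and 31.1 and 33.8 CPM in HFD (adjusted p 0.00983). Prdx1 (1.45) and Txn1 (1.36) rose as well, and Nfe2l2, which encodes NRF2, was 1771 CPM in NCD and 822 and 902 CPM in HFD (-1.10, SE 0.22, 0.0182). Of 24 peroxide and superoxide genes 6 rose, with Mt1 (1.86) and Prdx5 (1.40), and none fell. In neutrophils, where 2.82% of all genes passed, the counts were 2 higher and 1 lower of 29, 3 higher of 24, and 2 higher and 1 lower of 21. Ltf, the iron-binding granule protein lactoferrin, was 10.2 CPM in NCD and 138 and 783 in HFD (5.49, SE 1.10, 0.0320), Abcc1 rose by 2.49 (SE 0.51, 0.0363), and Prdx1 was 25.5 against 102.1 and 169 (2.42, SE 0.47, 0.0287) and Cybb 30.6 against 321 and 425 CPM (3.62, SE 0.42, 0.00602).

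Whether the diet change itself differed between types was tested in 1 fit with a term for each type and group. For Kupffer cells minus endothelium 2 of 10 members passed, against 2.29% of all genes. The Ftl1 change was larger in Kupffer cells, by 1.36 on the log2 scale (SE 0.30, adjusted p 0.0446), with 3078, 5608 and 5495 CPM in NCD and both HFD libraries there and 1114, 1014 and 1007 CPM in endothelium. The median of all genes was itself 0.24 in this comparison, and 4 alternatives ended the Ftl1 call (adjusted p up to 0.151). The Slc11a1 change was smaller, by -3.04 (SE 0.49, 0.0138), with 196, 278 and 266 CPM against 0.2, 6.3 and 3.2 CPM. That call was lost when free RNA was subtracted (adjusted p 0.492), and droplets without cells held 10.0, 80.3 and 131 CPM of Slc11a1 in the same libraries. The Hmox1 change did not differ detectably between these types (0.15, SE 0.46, 0.951). For neutrophils minus monocytes no member passed, against 0.453% of all genes, with the Ftl1 difference at 0.78 (SE 0.30, 0.328), 1 member at an unadjusted p under 0.05, and none by DESeq2.

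JQF was compared with HFD to ask which of these levels differed when the formula was given on the same diet. Of 39 values in 4 types none passed with edgeR, 10 had an unadjusted p under 0.05, and DESeq2 called 1, Slc7a11 in monocytes. Few genes of any kind passed: 0.165% in Kupffer cells, 0.0167% in monocytes, 0.58% in neutrophils and 0.846% in endothelium.

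In Kupffer cells 4 members had an unadjusted p under 0.05, all higher in JQF. Hmox1 was 1928 CPM in JQF against 915 and 976 CPM in HFD, a log2 difference of 1.04 (SE 0.24, adjusted p 0.170). Fth1 was 10967 CPM against 4359 and 5883, a difference of 1.11 (SE 0.26, 0.187). Tfrc was 38.1 CPM against 18.0 and 18.4 (1.07, SE 0.21, 0.132), and Gclm 108 CPM against 62.4 and 62.5 (0.80, SE 0.17, 0.143). In each the JQF library lay outside the HFD pair, yet none passed. For Tfrc, 3 cells held 35.1%, 8.0% and 34.3% of the UMIs in HFD replicate 1, HFD replicate 2 and JQF. After thinning, Tfrc was 24.4 and 18.4 CPM in HFD and 26.8 CPM in JQF. Thinned cells with a Tfrc UMI made up 4.88% and 3.58% in HFD and 5.37% in JQF. The 95% intervals of these shares were 1.81% to 10.3%, 2.56% to 4.87% and 2.71% to 9.40%. They overlap, so the thinned values are too few to tell whether the difference remains at equal depth. In UMI counts, Fth1 came to 1.39, 0.777, 1.07 and 2.16 times Ftl1, which was 5068 CPM in JQF and 5608 and 5495 CPM in HFD. Slc40a1 was 1937 against 1428 and 1667 CPM (0.34, SE 0.25, adjusted p 0.633), and Slc11a1, Gpx4, Nqo1 and Slc7a11 had adjusted p of 0.571 or more.

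Kupffer cells without a Timd4 UMI numbered 118 and 665 in HFD and 36 in JQF. Among them Fth1 was 4364 and 5264 CPM in HFD and 14505 CPM in JQF (1.61, SE 0.19, adjusted p 0.114). Hmox1 was 938 and 807 against 1972 CPM (1.20, SE 0.19, 0.127) and Gclm 59.98 and 62.7 against 162 CPM (1.41, SE 0.21, 0.127). Tfrc was 17.8 and 18.5 against 19.3 CPM (0.09, SE 0.44, 0.986). The 36 JQF cells were shallower, with a median of 7842.5 UMIs against 15472 and 12286 in HFD, and held 363597 UMIs in all. Tfrc in JQF thus rests on few UMIs. The part of depth and of Timd4 makeup was not tested. None of 9 passed in this fit, chosen after seeing the data, against 0.00957% of all genes, with 4 at an unadjusted p under 0.05, while DESeq2 called Fth1 and Hmox1. With library totals or no filter on low counts Fth1, Hmox1 and Gclm passed (adjusted p up to 0.0369), and Fth1 also with doublets removed (0.0495). Among Timd4-positive cells, in NCD, HFD replicate 2 and JQF, Fth1 was 4251, 6956 and 10391 CPM, Gclm 64.8, 62.1 and 99.4, and Tfrc 51.8, 18.1 and 41.2.

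**Figure D4:**
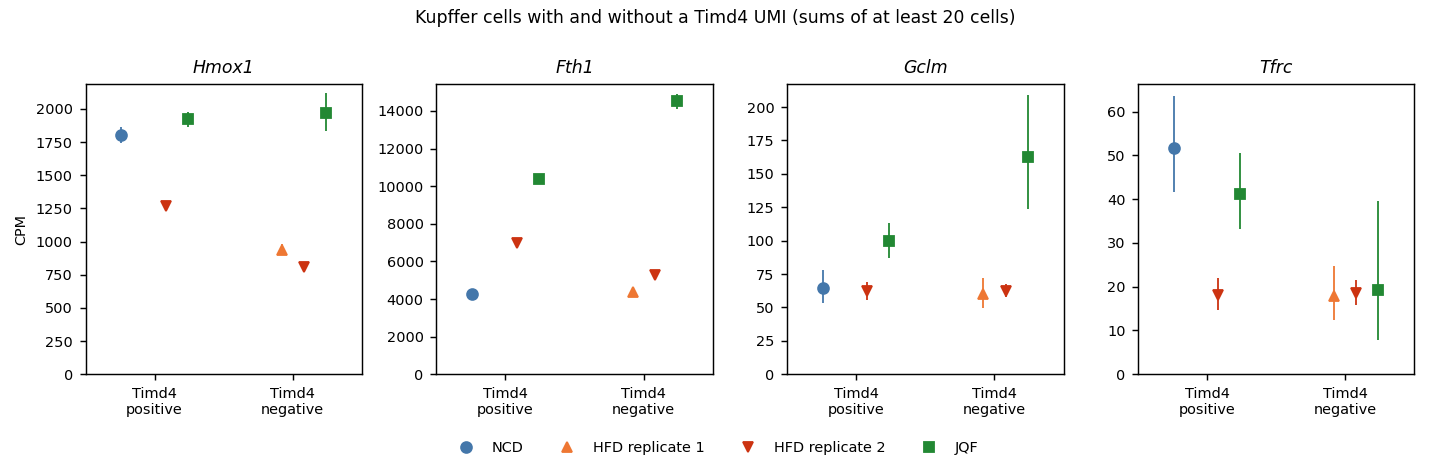
CPM of Hmox1, Fth1, Gclm and Tfrc in Kupffer cells with and without a Timd4 UMI, by library, with exact Poisson 95% intervals; sums under 20 cells are left out. Fth1 is highest in JQF on both sides of the split (10391 and 14505 CPM), whereas Tfrc without Timd4 lies at 17.8 to 19.3 CPM in all 3 libraries.

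Other macrophages gave the only member past the threshold, in a fit of the 3 libraries with enough cells that was added after seeing the data. Slc7a11 was 46.7 and 47.2 CPM in HFD and 190 CPM in JQF. The 13 cells of NCD, which were not in the fit, held 266 CPM, with 88.5% of the UMIs in 3 cells. The difference of JQF from HFD was 2.08 on the log2 scale (SE 0.15, adjusted p 0.0267). Slc7a11 passed under all 8 alternatives in which it was tested anew, at 2.01 to 2.25. It was 1 of 10 members called, against 0.134% of all genes. In HFD replicate 1, HFD replicate 2 and JQF, 3 cells held 41.9%, 19.4% and 40.0% of the Slc7a11 UMIs. An Slc7a11 UMI was found after thinning in 5.05% and 5.84% of cells in HFD and in 14.0% in JQF. The part of the few high cells in the call was not tested. Slc7a11 is the neutrophil transcript of this set, and the 7 neutrophil markers summed to 99.3 and 98.4 CPM in HFD and 96.6 CPM in JQF. Monocyte markers summed to 617 and 950 CPM in HFD and 1242 in JQF, Kupffer markers to 1789, 2311 and 587 CPM, and their part was not tested. Slc40a1 was 446 and 535 against 214 CPM (-1.13, SE 0.21, adjusted p 0.166, but 0.0141 by DESeq2, 0.0365 with doublets removed and 3.74e-06 without a filter on low counts), and Fth1 7710 and 7887 against 12173 CPM (0.71, SE 0.13, 0.166). Whether JQF differed more in Kupffer cells than in other macrophages was tested for all 10 members, and none passed with edgeR or DESeq2 against 0.0354% of all genes. There, 3 had an unadjusted p under 0.05, among them Slc40a1 (1.47, SE 0.56, adjusted p 0.770) and Hmox1 (1.14, SE 0.45, 0.781).

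In monocytes Slc7a11 was 116, 100, 139 and 398 CPM. JQF stood apart from the other 3 libraries. The log2 difference from HFD was 1.90 (SE 0.24) with an adjusted p of 0.0937, 0.000611 by DESeq2 and 0.0266 with a stricter cell filter. Gclm was 45.8 against 20.3 and 30.3 CPM (1.01, SE 0.27, 0.253), Fth1 11107 against 5953 and 8078 CPM (0.83, SE 0.30, 0.367) and Ftl1 5815 against 3450 and 4615 CPM (0.70, SE 0.28, 0.428). In classical monocytes alone Slc7a11 was 93.8 and 107 CPM in HFD and 358 CPM in JQF (1.95, SE 0.19, adjusted p 0.114). No member of 10 passed there against 0.00932% of all genes, with 3 at an unadjusted p under 0.05 and 1, Slc7a11, by DESeq2. Slc7a11 also passed there with the stricter cell filter (0.0329), doublets removed (0.0197), library totals (0.0259) and no filter on low counts. In nonclassical monocytes Slc7a11 was 155 and 54.3 against 109 CPM, inside the HFD pair, and none of 7 passed by either tool against 0.405% of all genes, with 1 at an unadjusted p under 0.05. Both subset fits were chosen after seeing the data.

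In neutrophils and endothelium 1 member each had an unadjusted p under 0.05. In neutrophils Gclm was 139 CPM in JQF against 42.4 and 64.1 (1.22, SE 0.35, adjusted p 0.342), and was that member. Hmox1, Fth1, Ftl1 and Slc7a11 lay within 0.22 of HFD on the log2 scale with an SE of 0.23 to 0.39. In endothelium Ftl1 was 1470 CPM against 1014 and 1007 (0.55, SE 0.27, 0.735). Erythroid markers summed to 1732 CPM in this gate in JQF against 17.7 and 202 CPM in HFD, and hepatocyte markers to 413 against 138 and 226 CPM, and their part was not tested. Slc40a1 was 153 CPM in JQF, above the HFD pair and below NCD. In sinusoidal cells alone, a fit added after seeing the data, none of 9 passed by either tool against 1.57% of all genes, with 1 at an unadjusted p under 0.05. Outside the gates, T cells held 678, 970, 979 and 1299 CPM of Fth1 and 288, 443, 486 and 657 CPM of Ftl1, also lowest in NCD and highest in JQF.

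**Figure D5:**
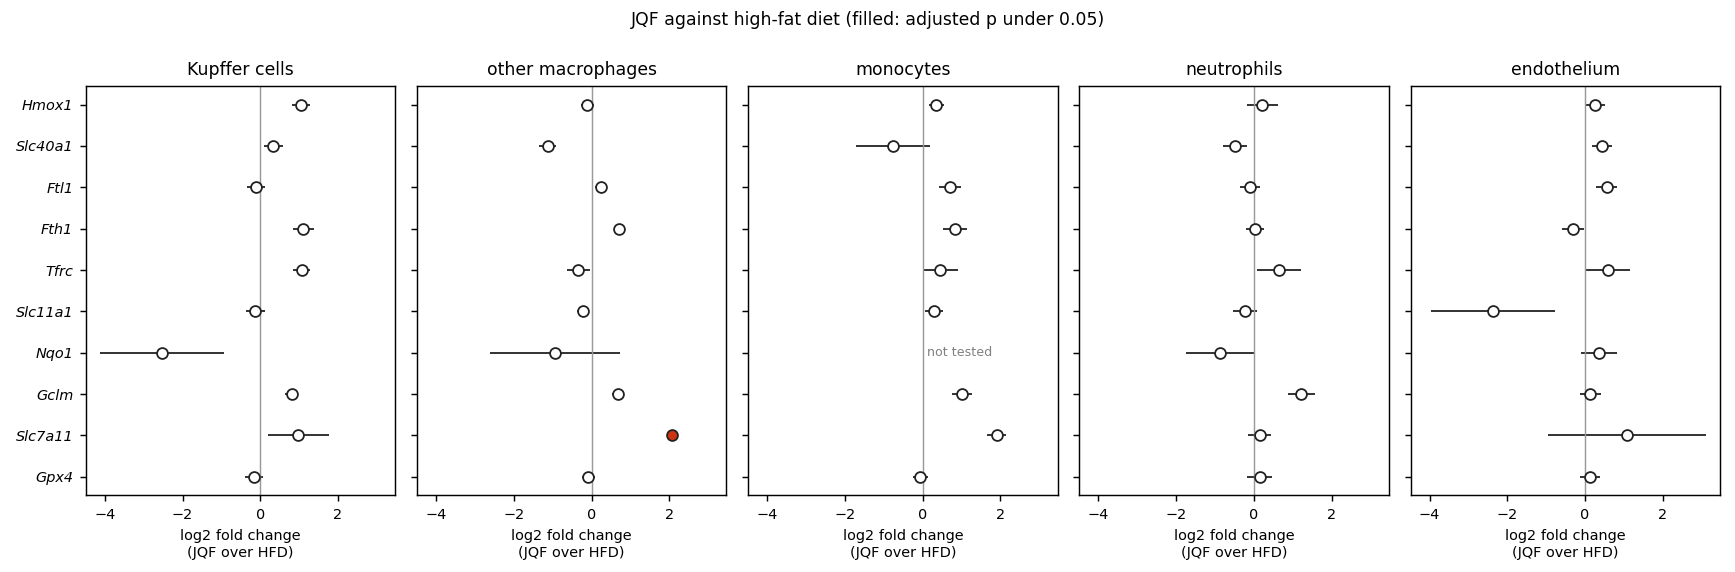
Log2 fold change of JQF over HFD for each gene (rows) in 5 types (panels), with its SE; the filled point has an adjusted p under 0.05. Slc7a11 is 2.08 in other macrophages (passed) and 1.90 in monocytes (not passed), and Hmox1, Fth1, Tfrc and Gclm lie at 0.80 to 1.11 in Kupffer cells.

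The difference of JQF from HFD was tested between types as well. For Kupffer cells minus endothelium no gene of 14122 passed, a share of 0%, and 865 had an unadjusted p under 0.05. The Fth1 value was 1.41 on the log2 scale (SE 0.40, adjusted p 0.585) and did not pass, and no member was called by DESeq2. For neutrophils minus monocytes none of 10 passed by either tool against 0.0354% of all genes, with Slc7a11 at -1.88 (SE 0.51, 0.243) and 3 members at an unadjusted p under 0.05. Of the pathway lists in JQF against HFD, no gene passed in Kupffer cells, other macrophages, monocytes or whole endothelium, and 1 of 21 peroxide genes rose in neutrophils, where 0.58% of all genes passed. The median of the iron and heme list was 0.38 in Kupffer cells, -0.14 in other macrophages, 0.06 in monocytes, 0.01 in neutrophils and 0.12 in endothelium, beside -0.01, -0.02, 0.02, 0.00 and 0.01 over all genes. In sinusoidal cells, where 1.57% of all genes passed, 1 of 36 iron and heme genes, 1 of 23 NRF2 and glutathione genes and 2 of 25 peroxide and superoxide genes rose and 1 of the last fell. There Gclc, the catalytic partner of Gclm, was 58.5 and 54.4 CPM in HFD and 103 CPM in JQF (0.91, SE 0.27, adjusted p 0.0454). The metallothioneins Mt1 (1.11, SE 0.26, 0.00319) and Mt2 (1.04, SE 0.26, 0.00644) rose, and Cybb (-3.30, 1.37e-12) fell from 53.2 and 59.6 to 5.8 CPM. The spread behind these adjusted p was drawn mostly from other genes, with 1 JQF library and 57 sinusoidal cells in HFD replicate 1. In whole endothelium Cybb was 44.2 and 52.9 CPM in HFD and 29.9 in JQF. Macrophage markers summed there to 96.1, 132 and 77.4 CPM and Kupffer markers to 6.3, 63.5 and 12.9 CPM. Their part was not tested.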

How the data were processed

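Whole livers of 4 mice were profiled with droplet 3′ single-cell RNA-seq. The deposited matrices hold raw UMI counts per gene and cell. Per the labels the authors used Cell Ranger 6.0.1 on mm10 and Seurat 4.0.3, while the filtered matrix headers name Cell Ranger 7.0.0, and whether intronic reads were counted is not given in the sources used here. Filtered matrices were reduced to cells with at least 500 genes and at most 20% mitochondrial UMIs. Types were gated on raw marker UMIs, so that deeper cells pass more easily. Counts were summed per library and type, and sums from at least 20 cells entered the tests. Libraries held 67615639 to 108062769 UMIs in kept cells. Intervals cover counting error only.

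Sums were fitted with edgeR 4.0.16 (R 4.3.3): TMM scaling, filterByExpr, the quasi-likelihood F test, and Benjamini-Hochberg adjustment over all genes tested, called at an adjusted p under 0.05. The SE is the log2 fold change over the square root of F. Fits of one type had 1 residual degree of freedom. The test then draws each gene's spread mostly from the other genes of the fit, so a small adjusted p rests on that shared spread. Alternatives were a stricter cell filter (1000 genes, 10% mitochondrial UMIs), 1 more marker per gate, Scrublet doublets removed (scanpy 1.11.5), median-ratio or total scaling, no filter on low counts, DESeq2 1.42.0, free RNA subtracted, and each library left out. All 10 members were named, with pathway genes taken from the 3 largest changes per direction among called genes of at least 20 CPM and the most correlated genes of each member. Members, lists and gates were chosen with earlier results of these data known, and fits said to be added were chosen after seeing the data.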

Additional observations from a re-analysis of the deposited data

Results flagged for a closer look

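For Ftl1 and Slc11a1 a test of the difference in diet change between cell types passed the threshold. The change of Ftl1 from NCD to HFD was larger in Kupffer cells than in endothelium by 1.36 on the log2 scale (SE 0.30, adjusted p 0.0446 by edgeR). The change of Slc11a1 went the other way, at -3.04 (SE 0.49, adjusted p 0.0138), with endothelial levels of 0.2, 6.3 and 3.2 CPM in NCD, HFD replicate 1 and HFD replicate 2. The median of all genes in this comparison was 0.24. The Ftl1 call was lost under 4 alternatives (adjusted p up to 0.151), and both were lost with free RNA subtracted, Slc11a1 at an adjusted p of 0.492. Droplets without cells held 10.0, 80.3 and 131 CPM of Slc11a1 in the same libraries.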

How the results depend on the processing

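For HFD against NCD the count of called members was 12 and ranged from 8 to 14 over the alternatives, and it was 14 without JQF. Between types it was 33 and ranged from 25 to 34. For JQF against HFD it was 0 in 4 types, and 1 with the stricter cell filter, 4 without a filter on low counts and 1 by DESeq2, while leaving out a library gave 0. Between subsets it was 3, became 7 without a filter on low counts, and ranged from 3 to 9 when a library was left out (9 without HFD replicate 1 and 5 without HFD replicate 2). For the difference of the group change between types it was 2, and 1 with the stricter cell filter, with median-ratio factors or with library totals, 5 without a filter on low counts and 0 with free RNA subtracted, and 0 to 2 with a library left out. Among the values that changed sign were Gpx4 in neutrophils against the other types with library totals (-0.17) and Fth1 in classical against nonclassical monocytes with a library left out (-0.26 to 0.33, the highest without HFD replicate 1) or without a filter on low counts (0.09), beside -0.02 as reported. The cause was not tested. Of 672 alternative values of called members 671 kept their direction, 554 passed again, 76 were lost and 42 had no test. Of 2033 values of members not called, 106 changed sign and 67 passed.

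With 1 NCD and 1 JQF library, a left-out HFD replicate leaves no test within a type, and NCD and JQF are assumed to vary like the HFD pair. One more marker in the gates left too few cells to compare subsets with each other or to fit nonclassical monocytes alone. The other fits of single subsets kept enough cells. Depth limits Nqo1, the rarest member, and Slc7a11 in Kupffer cells and endothelium and Slc11a1 in endothelium, both near the levels of T cells. Nothing in the labels pairs animals between groups, so the groups were compared unpaired. Types and subsets were compared within libraries, with library as a block.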
